A study of Mus musculus with 9 samples.

Results

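Bile acids secreted by the liver are recovered in the last part of the small intestine, the ileum, and returned to the liver in portal blood, a route known as the enterohepatic circulation. Slc10a2 encodes the apical sodium-dependent carrier that takes bile acids into the ileal enterocyte, Fabp6 encodes the cytosolic protein that binds them there, and Slc51a and Slc51b encode the subunits of the basolateral carrier that releases them to the blood, a heterodimer that needs both partners. Nr1h4 encodes the nuclear receptor FXR, which is activated by bile acids as a partner of RXR, and its ileal targets include Fgf15, a hormone that lowers bile acid synthesis in the liver, and Nr0b2, which encodes the repressor SHP. These 7 genes (Slc10a2, Fabp6, Slc51a, Slc51b, Nr1h4, Fgf15 and Nr0b2) were chosen by symbol for their known roles in ileal bile acid handling, and all 7 had a row among the 19360 genes of the deposited table and passed the filter on low values, as did 14199 genes in all.

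The RNA came from small sections of small intestine of BALB/c mice, all of which received 9 Gy of total body irradiation (TBI) and gave tissue 12 h later. Mice of the 3pRNA + anti-IFNAR1 + TBI group (n = 3) were given an antibody that blocks the type I interferon receptor subunit IFNAR1 48 h before irradiation and 3pRNA, a 5′-triphosphate RNA that activates the RNA sensor RIG-I, 24 h before it. Mice of the 3pRNA + TBI group (n = 3) were given 3pRNA 24 h before irradiation without the antibody, and mice of the TBI group (n = 3) were irradiated only. The labels give no unirradiated group and none that received the antibody or the 3pRNA carrier alone, so effects of carrier, antibody and irradiation cannot be told apart from those of the named agents. Within each sample, fewer enterocytes and less RNA per enterocyte cannot be told apart either.

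The libraries held 6487053 to 19946586 reads in genes. Levels are given as scaled counts, the reads of a gene divided by a factor that evens out the depth of each library, and a gene was called where limma, fitted to log2(scaled count + 1) of all tested genes, gave an adjusted p under 0.05. Of 6 interferon response genes used to check the labels, 5 passed the test as higher with 3pRNA (3pRNA + TBI against TBI) and 6 as lower with the antibody (3pRNA + anti-IFNAR1 + TBI against 3pRNA + TBI). The groups also differed in tissue layers. Smooth muscle markers summed to 17315 to 28931 scaled counts in 3pRNA + anti-IFNAR1 + TBI mice, 23325 to 30417 in 3pRNA + TBI mice and 5886 to 20001 in TBI mice, and adipocyte markers to 553 to 2489, 1273 to 2665 and 429 to 742 in the same group order. Mean log2 levels of 12 enterocyte markers lay at 14.58 to 14.74, 14.31 to 14.81 and 14.66 to 15.08 in that order. In TBI mice the adipocyte sum was largely Cidec (368, 596 and 370 scaled counts), while Adipoq, Plin1, Cfd, Lep and Retn had 0. Adipoq, Plin1, Cfd and Lep also had 0 in 3pRNA + anti-IFNAR1 + TBI replicate 2. The part of tissue makeup in the results below was not tested except where a value is given.

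The labels do not name the segment of small intestine. Fabp6, the defining marker of the ileum, ranked 5th of 14160 tested genes in level per kb of exon, whereas Fabp1, the fatty acid binding protein of the proximal small intestine, had 3.45 to 15.1 scaled counts in the 9 mice. Other genes of the proximal list were well expressed, with mean scaled counts of 9462 for the apolipoprotein gene Apoa4, 4440 for Ada and 4013 for Rbp2. The ratio of Fabp6 to Fabp1 was 1911 to 7719. Mean scaled counts of Gata4, the transcription factor of proximal enterocytes, were 7.54, 6.68 and 10.1 in the 3pRNA + anti-IFNAR1 + TBI, 3pRNA + TBI and TBI groups, below the minimum mean of 10 over all mice. Mean scaled counts of Cubn, the ileal receptor for the vitamin B12 complex, were 25415, 16191 and 26973 in that order. All 9 sections thus carried distal ileal markers, along with part of the proximal list.

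Promoter sequences were examined because FXR, the product of one of the 7 genes, is known to act on several of the others. RefSeq holds promoter windows of 300 bases, 250 before and 50 after the start, on GRCm38.p6 for 6 of the 7 genes. FXR with RXR is known to bind an inverted repeat of AGGTCA with 1 base in between, and HNF1 factors, which are needed for ileal bile acid uptake in mice, bind an inverted repeat of GTTAAT with 1 base between. Both strands of 32851 promoter windows were searched for each. The closest matches are given here 5′ to 3′ on the strand of the gene, with the matching bases in capitals and 15 bases on either side.
Fabp6, inverted repeat of AGGTCA: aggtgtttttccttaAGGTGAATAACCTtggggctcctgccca
Slc51b, inverted repeat of AGGTCA: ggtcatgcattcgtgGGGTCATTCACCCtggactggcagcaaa
Slc10a2, inverted repeat of GTTAAT: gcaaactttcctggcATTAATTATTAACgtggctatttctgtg
Nr1h4, inverted repeat of GTTAAT: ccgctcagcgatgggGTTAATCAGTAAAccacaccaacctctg
The Fabp6 match had 2 mismatches over 12 fixed bases (printed stretch chr11:43601677-43601719, minus strand), and a second window of the same promoter matched as closely. As few mismatches were found in 1.14% of all promoters. The Slc51b match (printed stretch chr9:65422933-65422975, minus strand) had 3 mismatches, as did the best window of Slc51a, and 11.4% of promoters held as few. For Slc10a2, Nr1h4 and Nr0b2 the best match to this repeat had 4 mismatches, which 56.4% of promoters equalled or bettered. The GTTAAT repeat was matched with 1 mismatch by Slc10a2 (printed stretch chr8:5105484-5105526, minus strand) and with 2 by Nr1h4 (printed stretch chr10:89506671-89506713, minus strand), and 0.207% and 1.36% of promoters held matches as close. The best match of Fabp6 to the GTTAAT repeat had 4 mismatches, and 38.3% of promoters held as few. Those of Slc51a, Slc51b and Nr0b2 had 5, which 80.3% of promoters equalled or bettered. The sequence TCAAGGTCA was searched too. Its best match had 2 mismatches over 9 fixed bases in Fabp6, Slc51a, Slc51b, Nr1h4 and Nr0b2 (53.4% of promoters held as few). In Slc10a2 it had 3, and 98.6% of promoters held as few. These are matches of letters and not tests of binding.

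Levels differed widely among the 7 genes. Per kb of exon, which allows genes of unlike length to be compared, Fabp6 averaged 51341 scaled counts over the 9 mice and took 0.213% of all scaled counts. The carrier genes Slc51b, Slc10a2 and Slc51a followed at 2361, 2340 and 2279 scaled counts per kb, and their ranges over mice overlapped throughout, so that no order among them was seen. Nr1h4 averaged 1015 scaled counts per kb and its highest mouse, at 1235, lay below the lowest mouse of each carrier. The hormone and the repressor were far lower, with 25.7 scaled counts per kb for Fgf15 and 14.7 for Nr0b2, against a median of 52.2 over tested genes. The binding protein, the carriers and the receptor were therefore abundant in every section, whereas the mRNAs of the hormone and the repressor were sparse.

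**Figure D1:**
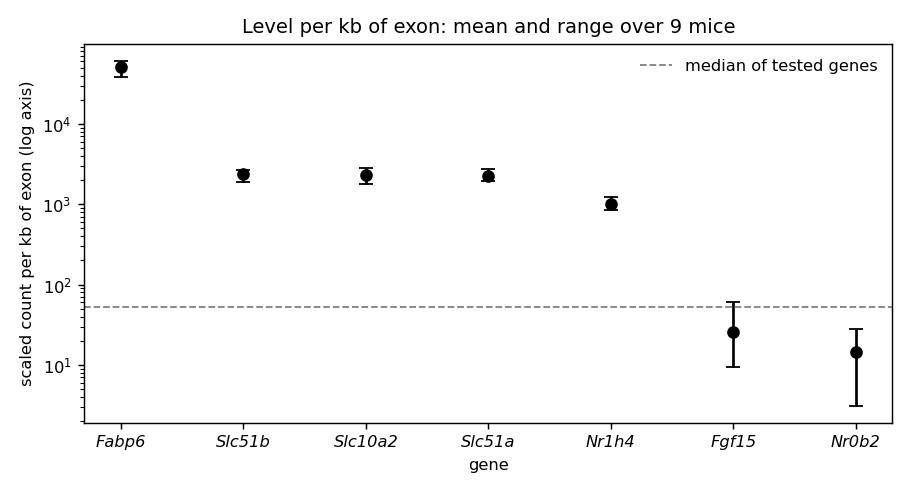
Scaled count per kb of exon on a log axis for each of the 7 genes, with points at the mean of 9 mice, bars from the lowest to the highest mouse and a dashed line at the median of tested genes. Fabp6 stands at 51341, the 3 carrier genes overlap between 1773 and 2808, and Fgf15 and Nr0b2 have means below the median of 52.2.

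The first comparison asked whether 3pRNA given before irradiation changed these genes relative to irradiation alone. None of the 7 passed the test (limma, Benjamini-Hochberg adjusted p under 0.05), where 5.59% of all tested genes did, and 1 of 7 had an unadjusted p under 0.05 in limma (3157 of 14199 tested genes) and 0 of 7 in voom, a form of limma that weights each value by its read count. The log2 differences were positive for 6 of 7 with a median of 0.18, beside a median of -0.02 over all tested genes. For the 5 abundant genes the 95% intervals lay between 0.706-fold and 1.46-fold, which bounds the change that the spread among mice allows. For 0 of 7 genes did the groups stay apart without overlap, against 25.2% of tested genes.

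In the second comparison, which asked what blocking IFNAR1 changed in mice given 3pRNA, again 0 of 7 genes passed where 1.42% of tested genes did, with 1 of 7 at an unadjusted p under 0.05 in both limma (1502 of 14199 tested genes) and voom. Here 6 of 7 log2 differences were negative, with a median of -0.26 beside 0.00 over all tested genes. The groups did not overlap for 1 of 7 genes, Slc51b, against 15.5% of tested genes. These comparisons share the 3pRNA + TBI mice, so that their opposite signs are not independent of each other.

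Between 3pRNA + anti-IFNAR1 + TBI and TBI mice, 0 of 7 genes passed in limma or in voom, none had an unadjusted p under 0.05 in either, and 0% of tested genes passed in either (1753 had an unadjusted p under 0.05 in limma). The median log2 difference was -0.07, with 6 of 7 negative, but when all libraries were scaled to equal totals 4 of 7 were positive, and 1 of 7 lay above the median of all genes under either scaling. No gene of the 7 had groups without overlap, against 19.1% of tested genes. Intervals for the 5 abundant genes lay between 0.7135-fold and 1.21-fold.

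**Figure D2:**
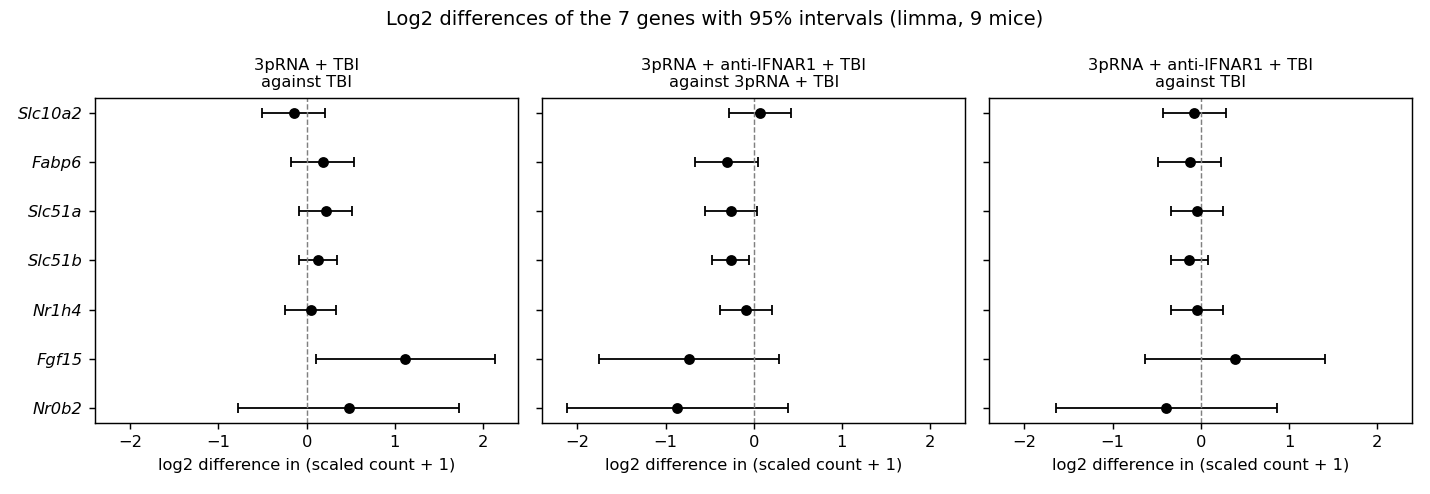
Log2 difference in scaled count plus 1 for each gene in the 3 comparisons, first-named group minus second, with 95% intervals from limma. The intervals of Fgf15 and Nr0b2 are the widest, and only those of Fgf15 in the first panel and Slc51b in the second exclude 0 before adjustment.

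Slc10a2, the apical uptake carrier (ENSMUSG00000023073), had 10029, 10848 and 8191 scaled counts in 3pRNA + anti-IFNAR1 + TBI mice, 9415, 11033 and 7363 in 3pRNA + TBI mice, and 9551, 11659 and 9338 in TBI mice. The 3 groups overlapped, with the lowest value in a 3pRNA + TBI mouse and the highest in a TBI mouse. Slc10a2 averaged 9270 ± 1840 in 3pRNA + TBI mice and 10183 ± 1283 in TBI mice (SD, n = 3 each), a log2 difference of -0.15 ± 0.16 (SE, limma adjusted p = 0.64), and its direction turned when 3pRNA + TBI replicate 3 was left out (0.01). The antibody made a log2 difference of 0.07 ± 0.16 to 3pRNA-treated mice (95% interval -0.28 to 0.43, limma adjusted p = 0.93).

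Fabp6, the cytosolic bile acid binding protein and a gene with a letter match to the FXR-type repeat shown above (ENSMUSG00000020405), had 18399, 27775 and 20829 scaled counts in 3pRNA + anti-IFNAR1 + TBI mice. It had 28934, 27420 and 25493 in 3pRNA + TBI mice, and 27317, 24063 and 21103 in TBI mice. Values in 3pRNA + TBI mice were close together, whereas 1 of the mice given the antibody reached their range and the other two lay below it. The log2 difference was 0.18 ± 0.16 between 3pRNA + TBI and TBI mice (SE, limma adjusted p = 0.56) and -0.31 ± 0.16 between 3pRNA + anti-IFNAR1 + TBI and 3pRNA + TBI mice (limma adjusted p = 0.57). The intervals, 0.884-fold to 1.46-fold and 0.629-fold to 1.036-fold, include no change in both cases.

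Slc51a and Slc51b encode the basolateral carrier, and Slc51a (ENSMUSG00000035699) had 6320, 7823 and 6186 scaled counts in 3pRNA + anti-IFNAR1 + TBI mice, 8486, 8852 and 6972 in 3pRNA + TBI mice, and 6175, 8003 and 6778 in TBI mice. The groups overlapped, with 2 of the 3pRNA + TBI mice above all others. Its log2 difference was 0.21 ± 0.13 between 3pRNA + TBI and TBI mice (SE, limma adjusted p = 0.38) and -0.26 ± 0.13 between 3pRNA + anti-IFNAR1 + TBI and 3pRNA + TBI mice (limma adjusted p = 0.56). In the GENCODE M21 models, 567 exonic bases of Slc51a are shared with Pcyt1a on the opposite strand, which averaged 1854 scaled counts. The library kit does not keep strand, and reads from there cannot be assigned.

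Slc51b (ENSMUSG00000053862) had 1349, 1642 and 1588 scaled counts in 3pRNA + anti-IFNAR1 + TBI mice and 1891, 1896 and 1693 in 3pRNA + TBI mice, against 1508, 1752 and 1747 in TBI mice. All 3 mice given the antibody lay below all 3 given 3pRNA alone, by a narrow margin of 1642 against 1693. The log2 difference was -0.26 ± 0.10 (SE, 95% interval -0.48 to -0.05), or 0.834-fold, with a limma adjusted p of 0.34, and the exact permutation test gave p = 0.1, the smallest that 3 against 3 mice allow. Slc51b shares 91 exonic bases with Rasl12 on the opposite strand, which averaged 20.47 scaled counts.

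The subunits of the carrier kept a steady proportion. The ratio of Slc51a to Slc51b scaled counts was 4.68, 4.76 and 3.90 in 3pRNA + anti-IFNAR1 + TBI mice, 4.49, 4.67 and 4.12 in 3pRNA + TBI mice and 4.10, 4.57 and 3.88 in TBI mice. It varied 1.23-fold over the 9 mice, less than either gene alone (1.43-fold and 1.41-fold), and the groups overlapped. Over the 9 mice the log2 levels of Slc51a and Slc51b had a Pearson r of 0.81 and a Spearman rho of 0.88, the highest among the 21 pairs of the 7 genes. After group means were removed r was 0.73, below the 0.87 of Slc10a2 and Slc51a. The points share library and depth, so these values are descriptive.

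**Figure D3:**
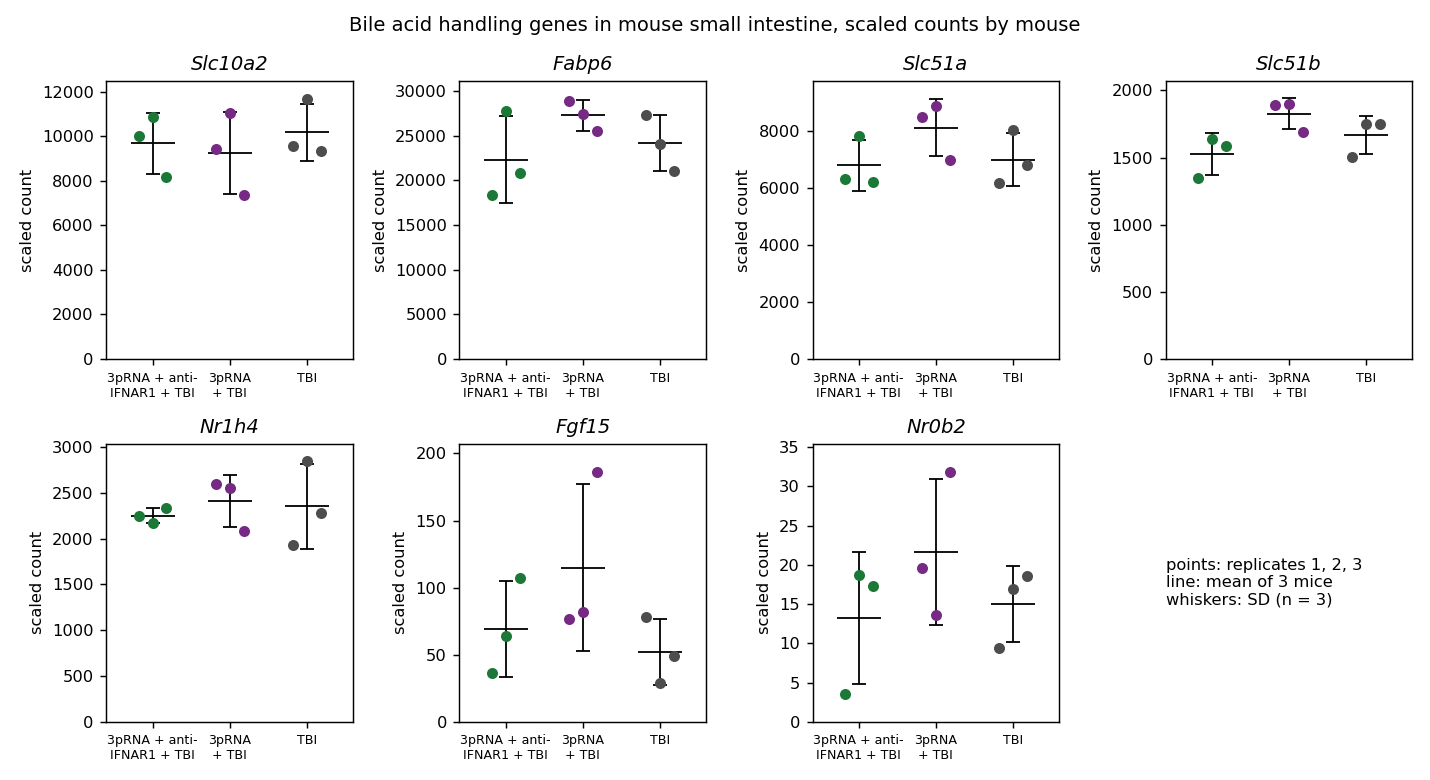
Scaled counts of the 7 genes in each mouse, with 3 points per group in replicate order, lines at group means and whiskers of 1 SD (n = 3). Groups overlap in every panel except that the 3 Slc51b values of 3pRNA + anti-IFNAR1 + TBI mice, 1349 to 1642, lie below the 3 of 3pRNA + TBI mice, 1693 to 1896.

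Nr1h4, the gene of FXR (ENSMUSG00000047638), had 2244, 2175 and 2340 scaled counts in 3pRNA + anti-IFNAR1 + TBI mice, 2593, 2551 and 2084 in 3pRNA + TBI mice and 1932, 2844 and 2282 in TBI mice. The TBI mice held both the lowest and the highest value. The log2 difference between 3pRNA + TBI and TBI mice was 0.05 ± 0.13 (SE, 95% interval -0.25 to 0.34, limma adjusted p = 0.88), with a reversed sign when 3pRNA + TBI replicate 1 (-0.01) or TBI replicate 1 (-0.09) was left out. Between 3pRNA + anti-IFNAR1 + TBI and 3pRNA + TBI mice it was -0.09 ± 0.13 (limma adjusted p = 0.88).

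Fgf15, the ileal hormone (ENSMUSG00000031073), was counted in 31, 61 and 62 reads in 3pRNA + anti-IFNAR1 + TBI mice, 86, 138 and 170 in 3pRNA + TBI mice and 107, 17 and 42 in TBI mice. After scaling these were 36.5, 63.6 and 107 in 3pRNA + anti-IFNAR1 + TBI mice, 76.6, 81.7 and 187 in 3pRNA + TBI mice, and 77.9, 28.9 and 48.7 in TBI mice. The 3pRNA + TBI and TBI groups overlapped through a single pair, 76.6 below 77.9. Fgf15 showed the widest difference among the 7 genes, with a log2 difference of 1.12 ± 0.46 between 3pRNA + TBI and TBI mice (SE, 95% interval 0.10 to 2.14), or 2.17-fold, but the limma adjusted p was 0.18 and the exact permutation test gave p = 0.2. The log2 difference was 0.71 without 3pRNA + TBI replicate 3 (limma adjusted p = 0.46), 1.83 without TBI replicates 1 and 3, and 0.85 in voom, with adjusted p between 0.10 and 0.46 over the alternatives. Between 3pRNA + anti-IFNAR1 + TBI and 3pRNA + TBI mice the log2 difference was -0.73 ± 0.46 (limma adjusted p = 0.66, and -1.11 to -0.33 with single libraries left out), and between 3pRNA + anti-IFNAR1 + TBI and TBI mice 0.39 ± 0.46 (limma adjusted p = 0.77).

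Fgf15 varied widely among mice of a group. Its residual SD within groups was 0.73 on the log2 scale, against a median of 0.24 for 500 genes of like level, 96.6% of which varied less. Exons of Fgf15 share 761 bases with the antisense gene Gm26793, which averaged 2.23 scaled counts.

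Nr0b2, the gene of the repressor SHP (ENSMUSG00000037583), was close to the limit of these libraries. It was counted in 3, 18 and 10 reads in 3pRNA + anti-IFNAR1 + TBI mice, 22, 23 and 29 in 3pRNA + TBI mice and 13, 10 and 16 in TBI mice, and 3 reads carry an exact 95% Poisson interval of 0.619 to 8.77 reads, which covers counting error only. The scaled counts were 3.53, 18.8 and 17.3 in 3pRNA + anti-IFNAR1 + TBI mice, 19.6, 13.6 and 31.8 in 3pRNA + TBI mice, and 9.46, 17.0 and 18.6 in TBI mice. The 3 groups overlapped, with the lowest value in a mouse given the antibody and the highest in one given 3pRNA without it.

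The log2 difference of Nr0b2 was 0.48 ± 0.57 between 3pRNA + TBI and TBI mice (SE, limma adjusted p = 0.68) and -0.87 ± 0.57 between 3pRNA + anti-IFNAR1 + TBI and 3pRNA + TBI mice (limma adjusted p = 0.67). The first of these was 0.17 to 0.75 with single libraries left out. The second was -0.18 without 3pRNA + anti-IFNAR1 + TBI replicate 1, the mouse with 3 reads (-1.24 to -0.18 with single libraries left out). Intervals from 0.584-fold to 3.31-fold and from 0.231-fold to 1.31-fold were too wide to show a change of 2-fold. Nr0b2 is also a gene of hepatocytes, and hepatocyte markers summed to 27.1 to 353 scaled counts in 3pRNA + anti-IFNAR1 + TBI mice, 191 to 438 in 3pRNA + TBI mice and 37.8 to 52.2 in TBI mice. The sum was carried by Cyp2e1 and Hp, whereas the hepatocyte gene Ttr averaged 16.6, 18.3 and 17.4 in that order. The hepatocyte genes Alb, Ahsg and Fgb had no row. Cyp2e1 had 249, 0 and 22.4 scaled counts in 3pRNA + anti-IFNAR1 + TBI mice, and the adipocyte gene Adipoq 205, 0 and 27.6. In 3pRNA + TBI mice Cyp2e1 had 81.0, 283 and 82.3 and Adipoq 126, 214 and 81.2. In TBI mice they had at most 0.728 and 0. Whether liver RNA contributed to Nr0b2 was not tested.

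The level of each gene was also set against the mean log2 level of the 12 enterocyte markers in the same mouse. On this scale the 3pRNA + TBI mice lay above the TBI mice without overlap for 3 of 7 genes (Slc51a, Nr1h4 and Fgf15), against 21% of all tested genes in either direction. The differences in relative log2 level were 0.45 for Slc51a, 0.28 for Nr1h4 and 1.36 for Fgf15, each with an exact permutation p = 0.1. The median relative difference over all tested genes was 0.21, since the mean of the enterocyte markers was on average lower in 3pRNA + TBI mice. That mean overlapped between the groups (14.31 to 14.81 against 14.66 to 15.08), and 0 of the 12 markers passed in limma. The log2 difference was positive for 4 of 12, and 4 of 12 lay below TBI in every 3pRNA + TBI mouse, against 1848 of 14199 tested genes. Between 3pRNA + anti-IFNAR1 + TBI and 3pRNA + TBI mice the relative levels of 2 of 7 genes did not overlap (9.97% of tested genes), with differences of -0.31 for Slc51a and -0.31 for Slc51b (exact permutation p = 0.1 for both). Between 3pRNA + anti-IFNAR1 + TBI and TBI mice 0 of 7 were apart, where 18.5% of tested genes were.

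**Figure D4:**
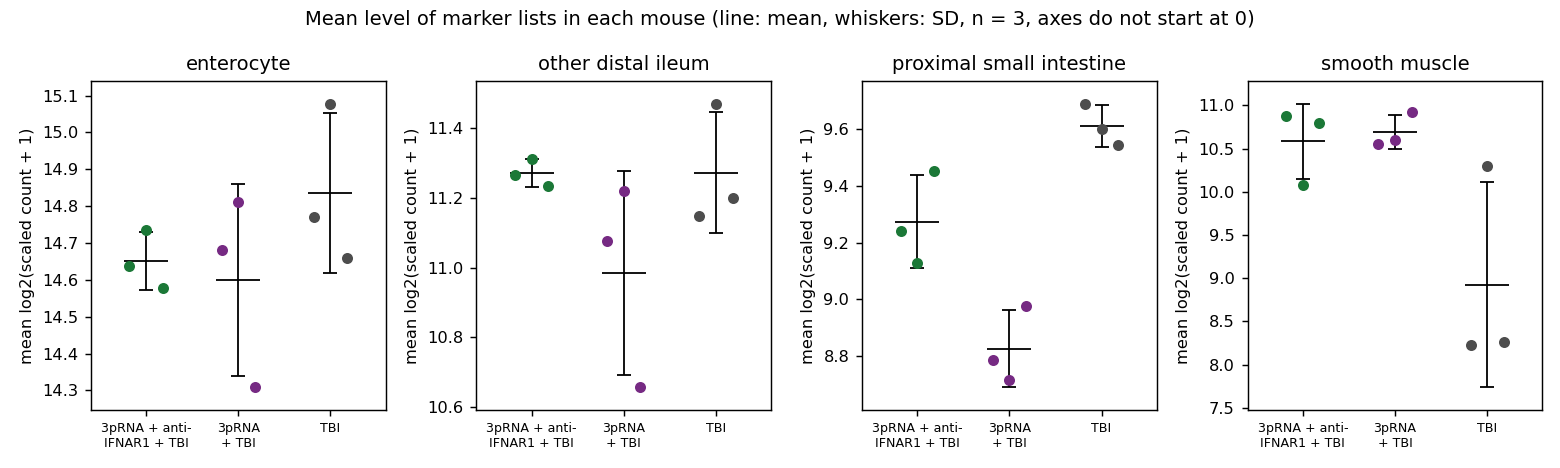
Mean log2(scaled count + 1) of the markers of enterocytes, other distal ileal genes, proximal small intestinal genes and smooth muscle in each mouse, with group means and SD (n = 3) and axes that do not start at 0. Proximal genes lie at 8.72 to 8.98 in 3pRNA + TBI mice, below all TBI mice (9.54 to 9.69), and smooth muscle markers are lowest in TBI replicates 1 and 3 (8.22 and 8.26).

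Fabp6 was set against Fabp2, the intestinal fatty acid binding protein of the same enterocytes, a gene outside the naming rule that was chosen after its values were seen. The ratio of Fabp6 to Fabp2 scaled counts was 0.545, 0.831 and 0.761 in 3pRNA + anti-IFNAR1 + TBI mice, 1.20, 1.06 and 1.34 in 3pRNA + TBI mice and 0.773, 0.543 and 0.712 in TBI mice. All 3 mice of the 3pRNA + TBI group thus held more Fabp6 than Fabp2 reads, and all 6 other mice held fewer. The mean log2 ratio differed by 0.84 between 3pRNA + TBI and TBI mice and by -0.77 between 3pRNA + anti-IFNAR1 + TBI and 3pRNA + TBI mice, given as a description since Fabp2 was chosen for its values. The denominator contributed the larger share, since Fabp2 itself averaged 31510 ± 3598, 22985 ± 3510 and 36432 ± 7409 in the 3pRNA + anti-IFNAR1 + TBI, 3pRNA + TBI and TBI groups (SD, n = 3 each), with a log2 difference of -0.66 between 3pRNA + TBI and TBI mice (limma adjusted p = 0.056). In contrast, the ratio of Fabp6 to Slc10a2, binding protein to uptake carrier, overlapped between all groups over its range of 1.83 to 3.46.

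**Figure D5:**
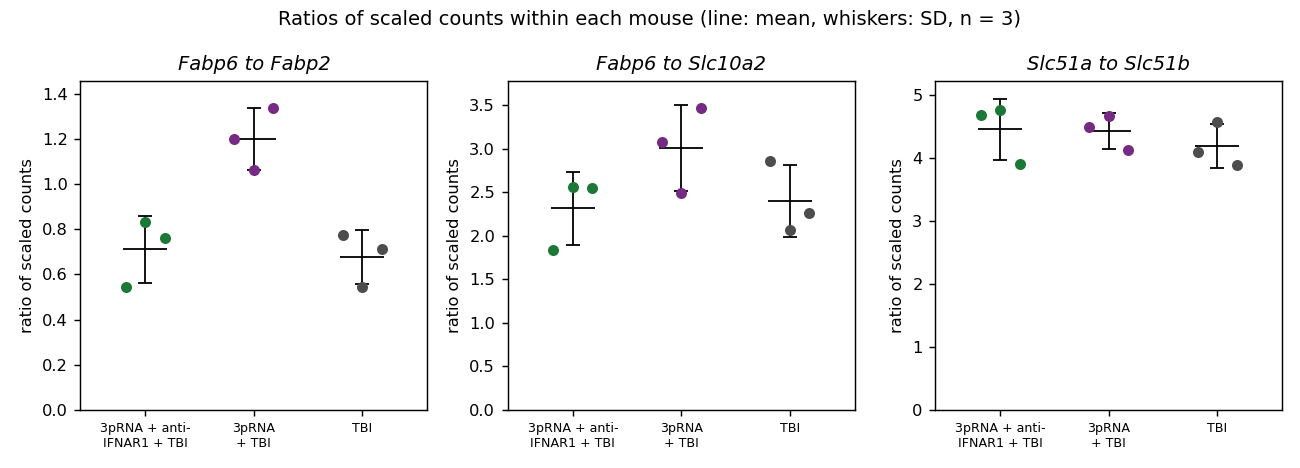
Ratios of scaled counts within each mouse for Fabp6 to Fabp2, Fabp6 to Slc10a2 and Slc51a to Slc51b, with group means and SD (n = 3). Fabp6 to Fabp2 is above 1 only in the 3pRNA + TBI mice (1.06 to 1.34), and Slc51a to Slc51b stays between 3.88 and 4.76 in all 9.

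The genes around the pathway were counted in 4 further lists. Of all 14199 tested genes 494 rose and 300 fell in 3pRNA + TBI relative to TBI mice in limma. Among 6 tested transporters of bile acids and their conjugates, 1 rose in this comparison and 0 fell. This was Abcc2, the apical exporter of conjugates, with 1537, 1210 and 980 scaled counts in 3pRNA + anti-IFNAR1 + TBI mice, 1800, 2052 and 1628 in 3pRNA + TBI mice and 941, 1090 and 531 in TBI mice. Every 3pRNA + TBI mouse was above every mouse of both other groups, and the log2 difference from TBI was 1.15 ± 0.24 (SE, limma adjusted p = 0.027). The call was lost when 3pRNA + TBI replicate 1 (0.081), 3pRNA + TBI replicate 3 (0.064) or TBI replicate 1 (0.060) was left out. It was also lost in limma without a variance trend (0.074) and with robust moderation (0.059). Without TBI replicates 1 and 3 the log2 difference was 0.74. Over the other alternatives the limma or voom adjusted p ran between 0.0055 and 0.081. The smaller difference of -0.57 between 3pRNA + anti-IFNAR1 + TBI and 3pRNA + TBI mice did not pass (limma adjusted p = 0.42).

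In limma with the settings given above no other gene of these lists passed in any comparison, while up to 3 transporters, 1 receptor, 2 regulators and 2 metabolic genes passed under single alternatives. Of the transporters, Abcb1a, a broad apical exporter, averaged 29175, 32046 and 22234 scaled counts in the 3pRNA + anti-IFNAR1 + TBI, 3pRNA + TBI and TBI groups, Abcg2, an exporter of sulfated conjugates among others, 3528, 3389 and 3934, and the basolateral exporter Abcc3 1334, 1469 and 1134. The nuclear receptors and partners had 0 of 9 called in limma and in voom in each comparison. In limma 2, 2 and 0 of them had an unadjusted p under 0.05 in the order of the comparisons above. Of all 14199 tested genes 3157, 1502 and 1753 did so. Among the receptors and partners, the FXR partner Rxra averaged 2387, 2435 and 2531. The vitamin D receptor Vdr, which also responds to lithocholic acid, averaged 4923, 4329 and 5147. Nr1i2, the gene of the xenobiotic receptor PXR, averaged 1062, 1223 and 1122.

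The regulators of ileal genes had 0 of 12 called in limma (2, 1 and 1 with an unadjusted p under 0.05), and in voom 1 was called between 3pRNA + TBI and TBI mice, the immediate early gene Jun (log2 difference -0.64, voom adjusted p = 0.0441), chosen after its values were seen. Hnf4a averaged 15774, 15781 and 18037 scaled counts in the 3pRNA + anti-IFNAR1 + TBI, 3pRNA + TBI and TBI groups, Hnf4g 2902, 3099 and 3633, and the transcription factor gene Maf 6103, 6087 and 5466. Of the list on bile acid metabolism and the FGF15 axis 0 of 8 tested genes were called in limma or voom (3, 1 and 1 with an unadjusted p under 0.05 in limma), including Malrd1, known in mice as a regulator of Fgf15, at 6317, 6310 and 8358, the sterol sulfotransferase gene Sult2b1 at 2161, 2118 and 2389, and the cytochrome gene Cyp3a13 at 1905, 2585 and 2296.

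Genes that mark other stretches of the small intestine were counted beside them. Of 6 tested genes typical of the proximal small intestine, 3 fell in 3pRNA + TBI mice against TBI mice and 0 rose (5 fell in voom). Of all 14199 tested genes 300 fell and 494 rose in limma. The list median was -0.98 on the log2 scale beside -0.02 over all tested genes, and the list was chosen with earlier results of these data known. Ada, adenosine deaminase, had 4781, 4177 and 5932 scaled counts in 3pRNA + anti-IFNAR1 + TBI mice, 2088, 2505 and 2567 in 3pRNA + TBI mice and 5931, 6843 and 5138 in TBI mice. Its log2 difference was -1.32 ± 0.14 between 3pRNA + TBI and TBI mice (SE, limma adjusted p = 0.0014) and 1.05 ± 0.14 between 3pRNA + anti-IFNAR1 + TBI and 3pRNA + TBI mice (limma adjusted p = 0.0037). Ada was the only gene of the regional lists called in both, and it was called under all 21 alternatives tried in each (limma or voom adjusted p up to 0.015 and 0.031).

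Slc40a1, the basolateral iron exporter, fell by 0.96 on the log2 scale (SE 0.16, limma adjusted p = 0.012), with 396 to 484 scaled counts in 3pRNA + TBI mice against 710 to 955 in TBI mice. Rbp2, the cellular retinol binding protein of enterocytes, fell by 0.49 (SE 0.11, limma adjusted p = 0.030), with 3163 to 3803 in 3pRNA + TBI mice against 4386 to 5498 in TBI mice. The call of Slc40a1 was lost without 3pRNA + TBI replicate 1 (limma adjusted p = 0.056, with 0.0025 to 0.17 over the alternatives). That of Rbp2 was lost without 3pRNA + TBI replicate 2 (0.052) or 3 (0.090) and without TBI replicate 1 (0.063) or 3 (0.060), with 0.023 to 0.090 over the alternatives. With only the 2 groups compared in the fit, 2 proximal genes were called. In limma without a variance trend 3 were called, Onecut2 among them (limma adjusted p = 0.031). As Ada was called throughout, Slc40a1 or Rbp2 lost its call under each of these settings. Of the other distal ileal genes 0 of 6 were called in limma or voom (2, 2 and 0 with an unadjusted p under 0.05 in limma), though Cubn and Clec2h passed between 3pRNA + TBI and TBI mice with a replicate block and Cubn without 3pRNA + TBI replicate 2, and Cubn averaged 25415 ± 1218, 16191 ± 5624 and 26973 ± 7474 in the 3 groups, Clec2h, a lectin gene, 15259, 12946 and 17556, and Amn, the partner of Cubn, 1318, 1202 and 1344 scaled counts. In all 3pRNA + TBI mice, 5 of 6 proximal genes and 2 of 6 other distal genes, Cubn and Clec2h, lay below all TBI mice, as did 0 of the 7 bile acid genes. Among all tested genes 1848 of 14199 did so, a share near which 0 of 7 lies. The difference between the lists was not tested.

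The 7 genes did not vary as a block over the 9 mice. The Pearson r between pairs of log2 levels ran between -0.78 for Slc10a2 and Fgf15 and 0.81 for the subunits, and r of Slc10a2 and Fgf15 was -0.79 after group means were removed. Slc10a2 and Fabp6 had an r of 0.17. In 3pRNA + TBI replicate 3, the mouse with the highest Fgf15 (187 scaled counts), Slc10a2 was at its lowest (7363), and in TBI replicate 2, with the lowest Fgf15 (28.9), Slc10a2 was at its highest (11659). Uptake carrier and hormone thus stood at opposite ends in the same mice, which share library and depth. These mice also held the lowest and the highest mean log2 level of the 12 enterocyte markers (14.31 and 15.08). Relative to those markers the SD of Slc10a2 was 0.053 in 3pRNA + TBI and 0.052 in TBI mice, against 0.29 and 0.18 without them. The lowest Fgf15 value rested on 17 reads. The part of enterocyte content in this opposition was not tested.

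Among tested genes outside the 7, those with a profile most like Fabp6 over the 9 mice included Fam160b2 (Pearson r 0.96), Oraov1 (0.92), Pdss1 (0.91) and AU019823 (0.91). For Slc10a2 they were 2010106E10Rik (0.98), Ddit4l (0.98), Golim4 (0.98), Crat (0.97) and Mier3 (0.97). For Fgf15 they were 9330175E14Rik (0.95), Cd93 (0.94), Calu (0.94), Hpse2 (0.93) and Nt5c3 (0.93). With 14199 genes and 9 mice, values of this size are descriptions of these libraries. Slc51a came 652nd and Slc10a2 4869th in likeness to Fabp6.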

How the data were processed

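Poly(A) RNA of small intestine from 9 mice was sequenced on an Illumina instrument after library preparation with a kit that does not keep strand. STAR was the authors' aligner, HTSeq their counter and DESeq their tool for scaling. The submitters' processing notes name mm9, junctions for mapping came from Ensembl per the authors' methods, and tool versions, the strand setting and the gene models used for counting were not given in the sources read. The deposited signal values are counts divided by a DESeq size factor, to which the authors added 1. That 1 was subtracted to give scaled counts, and 100% of values were then whole multiples of 1 read to within 0.02. The other deposited tables hold the authors' own comparisons (ratios, p-values and group means) and were not used.

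The 7 genes and all lists were chosen with earlier results of these data known. Log2(scaled count + 1) of 14199 genes with a mean of at least 10 over all 9 mice entered 1 limma fit over the 3 groups (limma 3.58.1 under R 4.3.3) that let the prior variance follow a trend, and p-values were adjusted over all genes by the Benjamini-Hochberg method. Single values were compared by two-sided exact permutation tests, which cannot go below p = 0.1 with 3 against 3 mice. Mice were assigned at random to groups and cages, per the authors' methods. Log2 differences on this scale understate changes of genes with few reads. Lengths are unions of GENCODE M21 exons and promoters are from RefSeq on GRCm38.p6. The fit was tested on simulated data that held the same variation for all genes and no difference in tissue makeup. That test does not show which changes the fit could find in the 7 genes. The genes named are the 7, the 5 tested genes most like each of Fabp6, Slc10a2 and Fgf15 in profile (1 of them is not reported here), and, of the pathway and regional lists, those that passed in any comparison with up to 3 others of highest mean scaled count. Alternatives were other pseudocounts, filters, scalings and limma settings, a replicate block, each library left out, and, added after seeing the data, voom on recovered reads and the fit without TBI replicates 1 and 3.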

Additional observations from a re-analysis of the deposited data

How the results depend on the processing

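The number of the 7 genes called was 0 in each comparison under all 21 alternatives, while the number of all genes called ran between 104 and 1223 in the first comparison (3pRNA + TBI with TBI mice), 89 and 281 in the second (the antibody group with 3pRNA + TBI mice), and 0 and 355 in the third (the antibody group with TBI mice, 355 without TBI replicate 2). Equal totals moved the median log2 difference of all genes by 0.113 in the first comparison and 0.102 in the third, and signs that turned are given beside this shift. In the third comparison, equal totals gave log2 differences of 0.029 for Slc10a2, 0.059 for Slc51a and 0.058 for Nr1h4, and equal upper quartiles gave 0.020 for Slc51a and 0.019 for Nr1h4. Without TBI replicates 1 and 3, the lone TBI library being assumed to vary like the others, Nr1h4 differed by -0.25 between 3pRNA + TBI and TBI mice. With single libraries left out, signs turned for 8 of 21 differences. In the first comparison the range was -0.28 to 0.0087 for Slc10a2 and -0.087 to 0.19 for Nr1h4. In the second it was -0.083 to 0.21 for Slc10a2. In the third it was -0.16 to 0.042 for Slc10a2, -0.30 to 0.0015 for Fabp6, -0.15 to 0.058 for Slc51a, -0.18 to 0.10 for Nr1h4 and -0.76 to 0.30 for Nr0b2. The cause was not tested.

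The labels do not say that replicate numbers mark a shared litter, batch or day. Deviations from group means correlated above 0.1 in 5 of 9 same-numbered pairs (-0.19 to 0.35 in all), and the best match in another group had the same number in 12 of 18 cases, a hint of pairing from the data and not from the design. With the replicate number as a block, 0 of the 7 genes were called in each comparison, and all genes called were 1223, 281 and 1 against 794, 201 and 0 without it. With the block, the first comparison also called Abcb1a, Vdr, Gata6, Jun, Cyp3a11, Malrd1, Apoa4, Cubn and Clec2h and the second Cyp3a11 and Cyp3a13. Equal totals called Abcc3, Abcb1a, Nr1h3 and Cyp3a11 in the first, and leaving out 3pRNA + TBI replicate 2 called Nr1h3, Nr3c1, Jun, Malrd1 and Cubn, genes named here after their values were seen. Nr0b2 was counted in 3 to 29 reads and Fgf15 in 17 to 170, and a change of 2-fold in 1 direction or the other lay inside the interval of both genes in each of the 3 comparisons.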
